A study of Mus musculus with 18 samples.

Results

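The endocytic receptor complex of the visceral endoderm was followed through the ribosome footprints of 4 genes, Lrp2, Cubn, Amn and Dab2, out of 51826 genes in the deposited count files. The 4 were found by their Ensembl IDs with the version number removed, and each matched 1 row in all 18 libraries (ENSMUSG00000027070.14 for Lrp2, ENSMUSG00000026726.10 for Cubn, ENSMUSG00000021278.7 for Amn and ENSMUSG00000022150.16 for Dab2). All 4 were among the 13701 genes kept by a filter on low counts. In ribosome profiling, nuclease trims the mRNA away except where ribosomes cover it and the covered stretches are sequenced, so a gene's count reflects both how much of its mRNA is present and how often that mRNA is translated, and the 2 cannot be separated here.

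The cells were E14, a mouse embryonic stem cell line, carrying a knockout (KO) of Quaking, a knockout of Sam68 or neither (WT, the wild-type E14 line). Quaking and Sam68 both bind RNA and share the STAR domain. Each line was profiled as embryoid bodies, aggregates in which differentiating stem cells make early embryonic cell types, at day 10, and as undifferentiated cells at day 0. There were 3 libraries in each of the 6 groups, which the submitters describe as biological triplicates, and all cells, controls included, received cycloheximide before lysis. Whether a knockout line is 1 clone or several is not given in the sources used here.

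Lrp2, also called megalin, is a very large receptor of the low-density lipoprotein receptor family. Cubn, or cubilin, is a receptor without a membrane-spanning segment, which reaches the cell surface bound to Amn, or amnionless, a small membrane protein. Dab2 is a cytoplasmic adaptor that links the tail of Lrp2 to the clathrin coat. In the visceral endoderm, the outer epithelium of the early mouse embryo and later of the yolk sac, these proteins take up lipoproteins, vitamin carriers and other nutrients; the kidney proximal tubule uses the same machinery. Mouse embryos without Amn or without Dab2 fail around gastrulation, and embryos without Quaking die with defective yolk sac vessels.

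Total counts ranged from 988210 to 10646768 per library. At day 10, the 10 largest features held 60.2% of counts in Sam68 KO replicate 2, 64.4% in Sam68 KO replicate 3 and 70.4% in WT replicate 3, and 24.6% to 30.2% elsewhere; these 3 are called the dominated libraries. Levels are therefore in CPM, counts relative to a library size that TMM scaling adjusts for composition. The libraries were sequenced in 3 pools: Quaking KO and WT stem cells in the first, Sam68 KO stem cells and WT embryoid bodies in the second, and embryoid bodies of both knockouts in the third. The stem cell comparison of Quaking KO with WT and the embryoid body comparison of both knockouts were therefore within 1 pool, and in every other comparison pool and group cannot be told apart. The files do not pair IDs with gene names, so other markers of visceral endoderm, of kidney or of other cell types, and the knocked-out genes themselves, were not examined; the name of the complex rests on the 4 genes alone. In bulk cells, fewer cells of a type and less RNA per cell cannot be told apart.

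The 4 genes lie on 3 chromosomes, and their promoters are shown because all 4 genes differed between the days and, at day 10, between Quaking KO and the other lines. Lrp2 is at chromosome 2, 69424335 to 69586029, Cubn at chromosome 2, 13276338 to 13491876, Amn at chromosome 12, 111271096 to 111276426, and Dab2 at chromosome 15, 6299788 to 6440715 (RefSeq annotation of GRCm38, the build named in the submitters' processing notes). The annotation lists 2 other genes overlapping Cubn, 1 overlapping Amn, 2 overlapping Dab2 and none overlapping Lrp2; since strand use in counting is not given, reads of overlapping genes cannot be told apart. The sequences below are the 250 bases upstream of each RefSeq transcription start (GRCm38.p6), 5′ to 3′ on the gene's strand. Any match to the searched motifs is in capitals, and Dab2 has 2 annotated starts. The window of the upstream Dab2 start ends at 6299788, which is also the first base given for the gene above.
Lrp2 promoter, chr2:69586030-69586279, minus strand: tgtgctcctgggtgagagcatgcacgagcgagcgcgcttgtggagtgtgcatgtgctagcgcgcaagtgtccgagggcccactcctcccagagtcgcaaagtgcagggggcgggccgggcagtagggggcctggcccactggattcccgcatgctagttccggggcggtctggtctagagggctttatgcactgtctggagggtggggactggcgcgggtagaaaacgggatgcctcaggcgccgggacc
Cubn promoter, chr2:13491877-13492126, minus strand: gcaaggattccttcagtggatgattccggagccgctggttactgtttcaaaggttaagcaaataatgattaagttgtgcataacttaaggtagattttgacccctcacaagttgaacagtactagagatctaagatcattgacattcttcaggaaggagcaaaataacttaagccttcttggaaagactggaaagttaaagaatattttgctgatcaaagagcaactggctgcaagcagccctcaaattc
Amn promoter, chr12:111270846-111271095, plus strand: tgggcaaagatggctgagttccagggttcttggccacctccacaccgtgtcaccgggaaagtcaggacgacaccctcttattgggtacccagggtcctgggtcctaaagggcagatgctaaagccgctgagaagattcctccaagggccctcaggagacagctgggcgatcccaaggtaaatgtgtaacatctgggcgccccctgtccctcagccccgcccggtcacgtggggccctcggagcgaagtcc
Dab2 upstream start promoter, chr15:6299539-6299788, plus strand: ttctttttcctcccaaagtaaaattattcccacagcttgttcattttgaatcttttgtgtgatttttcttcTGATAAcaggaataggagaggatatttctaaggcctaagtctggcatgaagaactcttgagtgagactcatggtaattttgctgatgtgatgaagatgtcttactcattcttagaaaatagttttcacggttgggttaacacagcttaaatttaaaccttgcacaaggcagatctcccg
Dab2 downstream start promoter, chr15:6386498-6386747, plus strand: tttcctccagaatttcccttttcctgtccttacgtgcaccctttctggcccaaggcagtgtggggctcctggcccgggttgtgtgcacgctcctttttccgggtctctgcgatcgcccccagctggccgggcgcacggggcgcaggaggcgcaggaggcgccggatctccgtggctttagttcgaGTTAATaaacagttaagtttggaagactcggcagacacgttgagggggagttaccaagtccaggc

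The motifs searched, on both strands, were those of transcription factors of early endoderm and the TATA box. GATA factors were searched as AGATAA, and also as TGATAA, and also as AGATAG, and also as TGATAG. HNF1 was searched as GTTAAT, FOXA as TGTTTAC or else as TGTTTGC, SOX factors as ACAAAG or else as ACAATG, and the TATA box as TATAAA. No match overlapped another. The upstream Dab2 window held TGATAA; any of the GATA forms was present in 26.5% of 32851 windows of this length. The downstream Dab2 window held GTTAAT, present in 6.43%. The Lrp2, Cubn and Amn windows held none of these letters, and FOXA forms were present in 7.29% of all windows, SOX forms in 25.2% and the TATA box in 12.4%. The windows differed in composition: Lrp2 had 18 CpG dinucleotides, the downstream Dab2 start 17 and Amn 11, whereas Cubn and the upstream Dab2 start had 2 each, against a median of 6 over all windows.

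**Figure D1:**
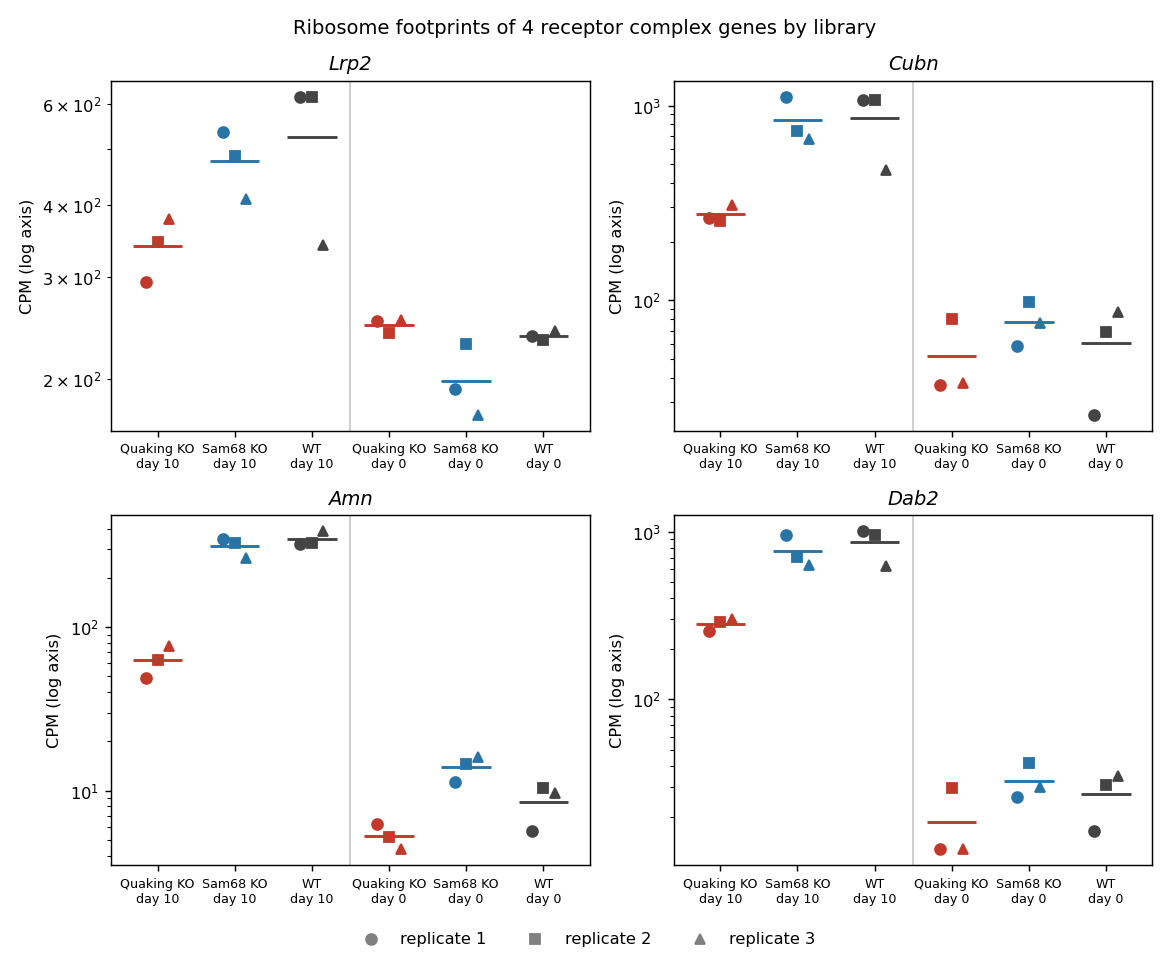
Footprint level of each gene in every library, in CPM after TMM scaling on a log axis; points are libraries, marked by replicate, and bars are means of 3. At day 10 the Quaking KO libraries lie below all Sam68 KO and WT libraries for Cubn, Amn and Dab2, and for Lrp2 they overlap WT through WT replicate 3 (341 CPM).

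All 4 genes were lower in Quaking KO embryoid bodies than in WT embryoid bodies at day 10, and none was called different in Sam68 KO. The fall was 5.37-fold for Amn, 3.16-fold for Cubn, 3.07-fold for Dab2 and 1.55-fold for Lrp2. In this comparison 12.8% of the 13701 genes tested were called lower and 11.1% higher (quasi-likelihood test of edgeR, two-sided, called where the Benjamini-Hochberg adjusted p was below 0.05), beside 4 of these 4 genes called lower. This balance depends on scaling: 1523 genes were called higher and 1756 lower, against 1820 and 1513 with RLE and 1426 and 480 with no adjustment for composition. The median log2 fold change of the 4 was -1.64, against -0.03 over all genes tested. Quaking KO and WT embryoid bodies lay in different pools, and with pool as an additive block, a fit that by construction returns the day 0 difference, 0 of the 4 genes were called.

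Among the receptors, Lrp2 was the least changed. It measured 295, 346 and 379 CPM in Quaking KO, against 616, 616 and 341 CPM in WT embryoid bodies. The groups overlapped through WT replicate 3, a dominated library, while the other WT libraries lay far above every Quaking KO library. Quaking KO over WT was -0.64 in log2 (SE 0.17, edgeR adjusted p = 0.00700). This became -0.87 without WT replicate 3, and the call was lost without WT replicate 1 (edgeR adjusted p = 0.0680) or replicate 2 (0.0579) and in a fit of only these 6 libraries (0.0616).

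Cubn, the receptor for intrinsic factor with vitamin B12 and for many carrier proteins, fell further. It measured 264, 257 and 307 CPM in Quaking KO, against 1067, 1068 and 465 CPM in WT embryoid bodies, with no overlap; 15.7% of all genes tested were likewise lower without overlap. The log2 fold change was -1.66 (SE 0.46, edgeR adjusted p = 0.0191), with a 95% interval from -2.65 to -0.66. It ran from -1.97 to -1.48 with 1 library left out, but the call was lost without Quaking KO replicate 1 (0.0568) or 2 (0.0607), without WT replicate 1 (0.0647) or 2 (0.0660), and with no filter on low counts (0.0755).

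Amn, the membrane anchor of Cubn, had the largest difference of the 4. It measured 49.2, 62.7 and 76.5 CPM in Quaking KO, against 323, 325 and 385 CPM in WT embryoid bodies. The groups stood far apart, and WT replicate 3, the lowest WT library for the other 3 genes, was the highest for Amn. The log2 fold change was -2.42 (SE 0.19, edgeR adjusted p = 1.87e-09), and 3.29% of all genes tested had a lower one. The same share was 7.1% for Cubn, 7.33% for Dab2 and 20.3% for Lrp2. The call held with each library left out in turn, with log2 fold changes from -2.58 to -2.28.

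Dab2, the adaptor, followed Cubn closely. It measured 257, 288 and 300 CPM in Quaking KO, against 1002, 958 and 623 CPM in WT embryoid bodies, without overlap. The log2 fold change was -1.62 (SE 0.33, edgeR adjusted p = 0.00253), and the call held with each library left out in turn. With no adjustment for composition (total-count scaling), an alternative added after the data had been seen, the log2 fold changes were -0.26 for Lrp2, -1.33 for Cubn, -1.90 for Amn and -1.22 for Dab2, of which Amn alone was called, and the median of all genes moved to 0.41; relative to that median the 4 values were -0.66, -1.73, -2.30 and -1.62.

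**Figure D2:**
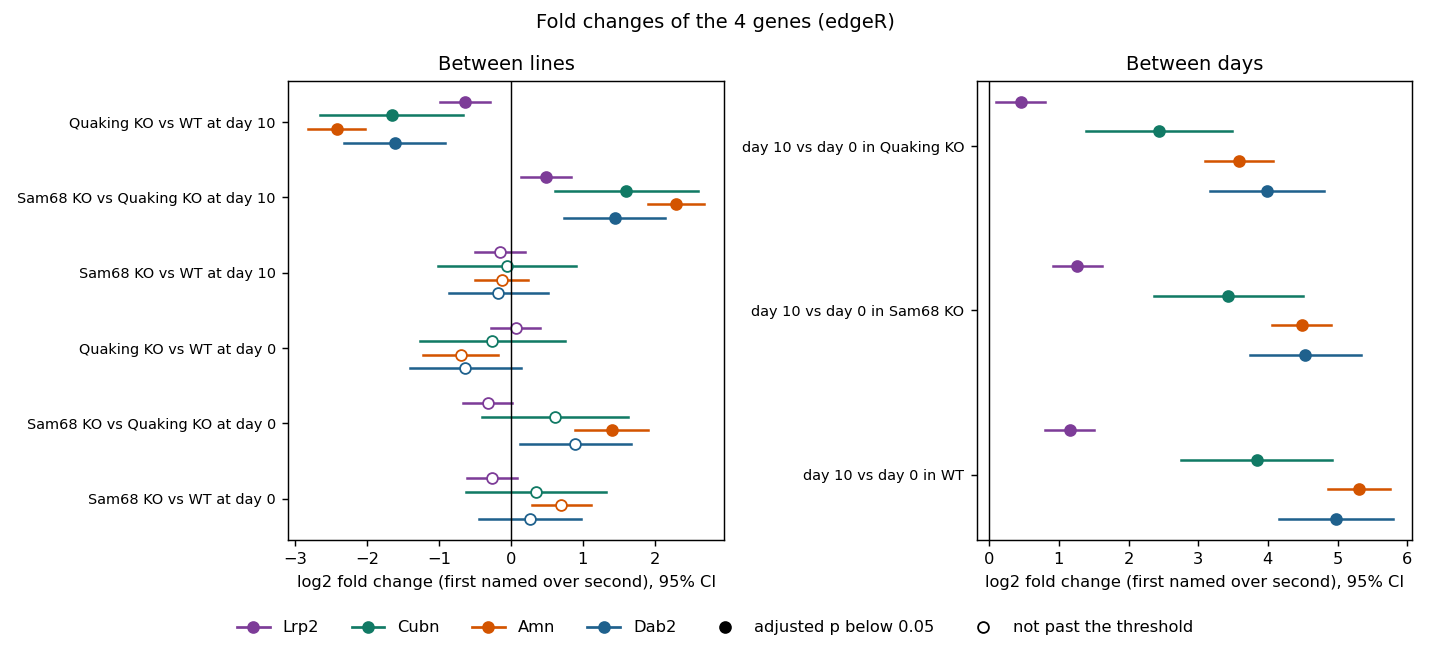
Log2 fold changes of the 4 genes with 95% confidence intervals from edgeR, on the left between lines at each day and on the right between days in each line; filled points have an adjusted p below 0.05. All 4 genes are lower in Quaking KO than WT and higher in Sam68 KO than Quaking KO at day 10, and all rose between the days in each line.

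Sam68 KO embryoid bodies were not distinguishable from WT for any of the 4 genes, at the precision of 3 libraries a group. These groups lay in different pools and hold all 3 dominated libraries. Lrp2 measured 535, 486 and 410 CPM in Sam68 KO, against 616, 616 and 341 CPM in WT. Cubn measured 1107, 741 and 672 CPM in Sam68 KO, against 1067, 1068 and 465 CPM in WT. The groups overlapped for both receptors, with WT replicate 3 lowest. For Amn the values were 346, 327 and 266 CPM in Sam68 KO, against 323, 325 and 385 CPM in WT, and for Dab2 951, 710 and 634 CPM in Sam68 KO, against 1002, 958 and 623 CPM in WT. The intervals of the log2 fold change ran from -0.49 to 0.20 for Lrp2, -1.02 to 0.91 for Cubn, -0.49 to 0.24 for Amn and -0.86 to 0.51 for Dab2. For Cubn this spans 0.493-fold to 1.88-fold. By edgeR 0 of the 4 genes were called, 0 had an unadjusted p below 0.05 and DESeq2 called 0, and 0.175% of all genes tested were called.

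The comparison of the 2 knockouts at day 10 lay within 1 sequencing pool. All 4 genes were higher in Sam68 KO than in Quaking KO, where 13% of all genes tested were called higher. This comparison shares the Quaking KO libraries with that against WT, so the 2 are not independent. The log2 fold changes of Sam68 KO over Quaking KO were 2.30 for Amn (SE 0.19, edgeR adjusted p = 2.76e-09), 1.61 for Cubn (SE 0.46, adjusted p = 0.0225), 1.44 for Dab2 (SE 0.33, adjusted p = 0.00530) and 0.49 for Lrp2 (SE 0.17, adjusted p = 0.0363). The libraries of the 2 knockouts overlapped for 0 of the 4 genes, and 17.8% of all genes tested were higher in Sam68 KO without overlap.

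The calls for Amn and Dab2 held with each library left out, and those for the 2 receptors did not. The Lrp2 call was lost without Quaking KO replicate 1 (edgeR adjusted p = 0.151) or 2 (0.0852), without Sam68 KO replicate 1 (0.184) or 2 (0.111), with RLE (0.0885) or upper quartile (0.0561) normalisation, without the low-count filter (0.252) and with DESeq2 (0.0844); with no adjustment for composition its log2 fold change was -0.22, at a median of -0.68 for all genes, and Cubn (0.97, adjusted p = 0.192) and Dab2 (0.78, adjusted p = 0.180) were not called. The Cubn call was lost without Quaking KO replicate 1 (0.0632), 2 (0.0703) or 3 (0.0551), without Sam68 KO replicate 1 (0.0884) and with no filter on low counts (0.101).

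Ratios of 2 genes' counts within a library do not depend on how the library is scaled and the Quaking KO libraries stood apart in 5 of the 6 at day 10. All 6 are formed from the same genes, so they are not independent of each other. They restate the unequal fold changes given above and are not separate evidence. The share of other gene pairs that stand apart in this way was not computed. Counts were not divided by gene length, so a ratio is read between libraries and not as a stoichiometry. For each Lrp2 count there were 0.167 to 0.202 Amn counts in Quaking KO embryoid bodies, 0.647 to 0.673 in Sam68 KO and 0.525 to 1.13 in WT. For each Lrp2 count there were 0.743 to 0.896 Cubn counts in Quaking KO, 1.52 to 2.07 in Sam68 KO and 1.37 to 1.73 in WT. The Quaking KO libraries lay below all others in both ratios, and likewise for Dab2 over Lrp2, which was 0.791 to 0.871 in Quaking KO, 1.46 to 1.78 in Sam68 KO and 1.56 to 1.83 in WT.

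The ratio of Cubn to Dab2 differed little between Quaking KO and WT at day 10. There were 0.893 to 1.03 Cubn counts per Dab2 count in Quaking KO, 1.04 to 1.16 in Sam68 KO and 0.747 to 1.12 in WT, and Quaking KO differed from WT in the mean log2 ratio by 0.03. Sam68 KO lay above Quaking KO without overlap, by 0.15 in the mean log2 ratio (exact two-sided permutation p = 0.1). Amn per Dab2 was 0.191 to 0.255 in Quaking KO, below the 0.364 to 0.461 in Sam68 KO and the 0.322 to 0.619 in WT. In log2 terms Quaking KO differed from WT by -1.89 for Amn over Lrp2, -1.004 for Dab2 over Lrp2, -0.97 for Cubn over Lrp2, -0.92 for Amn over Cubn and -0.89 for Amn over Dab2. Each of these 5 had an exact two-sided permutation p of 0.1, the smallest that 3 against 3 libraries allow, so none could pass a threshold of 0.05.

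**Figure D3:**
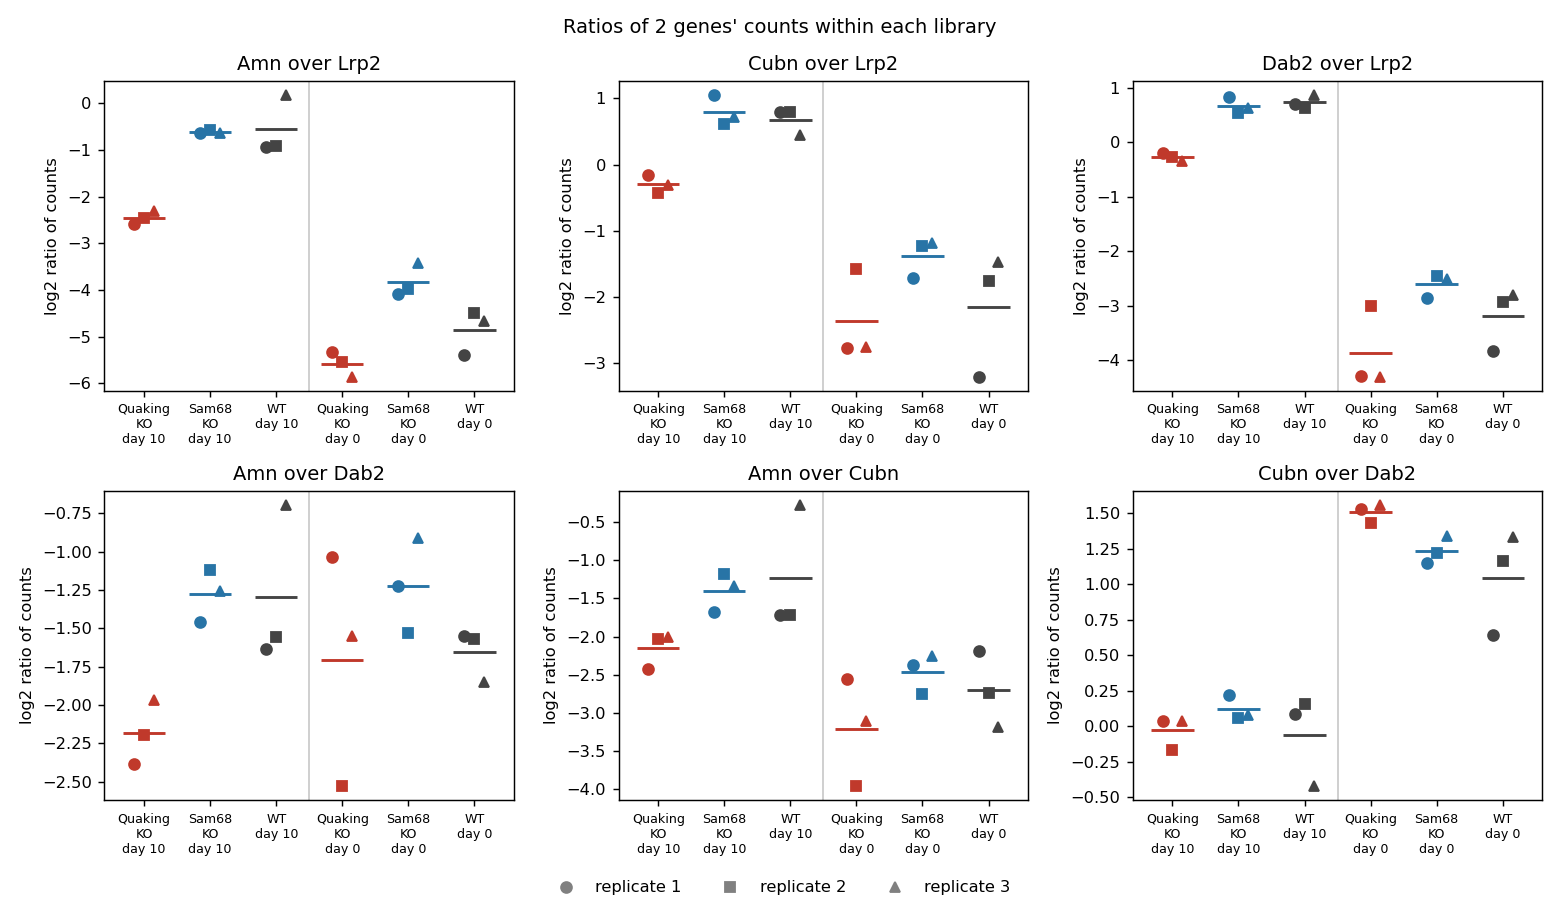
Log2 ratio of the raw counts of 2 genes within each library, by group; points are libraries, marked by replicate, and bars are means of 3. At day 10 the Quaking KO libraries lie below every other library in each ratio over Lrp2 and in both other ratios with Amn on top, while Cubn over Dab2 runs from 0.747 to 1.16 counts per count over the 3 lines.

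Footprints on all 4 genes rose between stem cells and embryoid bodies in every line, those on Lrp2 the least. In all 3 lines each of the 4 genes was called higher at day 10 than at day 0, where 34.9% of all genes tested were called higher in WT, 34.7% in Quaking KO and 34.9% in Sam68 KO. In WT the log2 fold changes of day 10 over day 0 were 5.31 for Amn (SE 0.22, edgeR adjusted p = 5.27e-16), 4.97 for Dab2 (SE 0.38, adjusted p = 3.95e-08), 3.84 for Cubn (SE 0.50, adjusted p = 1.77e-05) and 1.15 for Lrp2 (SE 0.17, adjusted p = 2.13e-06). In folds these were 39.7 for Amn, 31.5 for Dab2, 14.3 for Cubn and 2.23 for Lrp2. The median log2 fold change of the 4 genes was 4.41, against 0.10 over all genes tested. Of all genes tested in WT, 27.4% had a higher log2 fold change than Lrp2. This share was 3.59% for Amn, 4.14% for Dab2 and 7.07% for Cubn.

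In Sam68 KO the rise was 22.4-fold for Amn, 23.2-fold for Dab2, 10.8-fold for Cubn and 2.41-fold for Lrp2. In Quaking KO it was 12.01-fold for Amn, 15.9-fold for Dab2, 5.43-fold for Cubn and 1.37-fold for Lrp2. Of all genes tested in Quaking KO, 41.9% had a higher log2 fold change than Lrp2. Its rise in that line was the smallest of the 12 (log2 fold change 0.45, SE 0.17, edgeR adjusted p = 0.0217). That call was lost without day 0 replicates 1 (0.0716), 2 (0.103) or 3 (0.0553), without day 10 replicates 2 (0.0766) or 3 (0.147) and with no filter on low counts (0.558). With no adjustment for composition the rise of Lrp2 was not called in any line (edgeR adjusted p = 0.493 in Quaking KO, 0.380 in Sam68 KO and 0.178 in WT). Relative to the median of all genes it was then 0.34 in Quaking KO, 1.16 in Sam68 KO and 1.10 in WT on the log2 scale.

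Whether the Quaking difference itself grew with differentiation was tested by an interaction of line and day. The interaction was called for Amn (log2 value -1.72, SE 0.32, edgeR adjusted p = 0.000887), where 3.76% of all genes tested were called in that direction. It was -1.40 for Cubn (adjusted p = 0.226), -0.99 for Dab2 (0.249) and -0.70 for Lrp2 (0.0673), none of which passed. Lrp2 did pass without WT day 10 replicate 3 (-0.92, adjusted p = 0.00158) and with DESeq2 (0.0351). For Amn it was not called with no adjustment for composition (-1.17, adjusted p = 0.340). No Sam68 interaction was called for the 4 genes; the values were 0.11 for Lrp2, -0.40 for Cubn, -0.83 for Amn (adjusted p = 0.275) and -0.44 for Dab2. By edgeR 1 of the 4, Amn, had an unadjusted p below 0.05 for it, DESeq2 called 0, and 0.431% of all genes tested were called.

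The stem cells already had footprints on all 4 genes, and Lrp2 was the steadiest within a line. At day 0 Lrp2 measured 252, 240 and 253 CPM in Quaking KO, 192, 230 and 173 CPM in Sam68 KO and 237, 233 and 242 CPM in WT. The Sam68 KO values lay below those of both other lines without overlap, as did 9.96% of all genes tested against WT and 6.4% against Quaking KO. Sam68 KO over WT was -0.26 in log2, which was not called (edgeR adjusted p = 0.706). Between Sam68 KO and Quaking KO the log2 difference was -0.32 (adjusted p = 0.375), which was called in a fit of only those 6 libraries (-0.42, adjusted p = 0.0420).

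Cubn and Dab2 varied strongly between replicates of 1 line at day 0. Cubn measured 37.0, 80.4 and 37.8 CPM in Quaking KO, 58.5, 97.97 and 76.5 CPM in Sam68 KO and 25.9, 69.0 and 87.5 CPM in WT. Dab2 measured 12.8, 29.9 and 12.8 CPM in Quaking KO, 26.3, 42.1 and 30.3 CPM in Sam68 KO and 16.6, 30.7 and 34.8 CPM in WT. The same libraries were low for both genes: WT replicate 1 and Quaking KO replicates 1 and 3. No difference between lines was called at day 0 for Cubn (edgeR adjusted p of at least 0.612), nor for Dab2 with all libraries (edgeR adjusted p = 0.241 for Sam68 KO over Quaking KO, 0.0375 without Quaking KO replicate 2).

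Amn was low at day 0, with 6.26, 5.17 and 4.37 CPM in Quaking KO, 11.3, 14.6 and 16.1 CPM in Sam68 KO and 5.66, 10.3 and 9.63 CPM in WT. These rest on few counts; the smallest was 9, in Quaking KO replicate 2, with an exact 95% binomial interval of 4.12 to 17.1 counts. The Sam68 KO libraries lay above all others, as did 18.4% of all genes tested against Quaking KO and 11.7% against WT. Sam68 KO was higher than Quaking KO by 1.402 on the log2 scale (SE 0.25, edgeR adjusted p = 0.00107), the 1 call among the 4 genes in a comparison where 2.55% of all genes were called higher. This is across pools, and it was not called with no adjustment for composition (1.46, adjusted p = 0.134). Sam68 KO over WT was 0.70 (SE 0.20, adjusted p = 0.0998) and passed without Sam68 KO day 0 replicate 1 (0.0498). Quaking KO over WT, within 1 pool, was -0.70 (SE 0.25, adjusted p = 0.402), in a comparison where 0.365% of all genes were called. By edgeR 0 of the 4 genes were called in each comparison with WT at day 0, where 1 (Amn) had an unadjusted p below 0.05 and DESeq2 called 0, and 1.26% of all genes were called for Sam68 KO.

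Ordered by mean level, Cubn and Dab2 fell into the same sequence of groups. From high to low this was WT, Sam68 KO and Quaking KO at day 10, then Sam68 KO, WT and Quaking KO at day 0, and Amn had this order too. For all 3 genes the neighbours WT and Sam68 KO at day 10, Sam68 KO and WT at day 0, and WT and Quaking KO at day 0 were not called different. For Lrp2 the order at day 10 was the same, while at day 0 Quaking KO stood above WT and Sam68 KO, with no neighbours at day 0 called different. Mean Lrp2 levels were 340 ± 42.3 CPM in Quaking KO, 477 ± 62.9 in Sam68 KO and 524 ± 159 in WT at day 10 (SD, n = 3 each). Mean Amn levels were 62.8 ± 13.7 CPM in Quaking KO, 313 ± 42.1 in Sam68 KO and 344 ± 35.4 in WT.

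Cubn and Dab2 rose and fell together between libraries of day 0, and between those of Sam68 KO and WT at day 10. The correlations had been planned over the 9 libraries of day 10. The day 0 libraries, and those of Sam68 KO and WT at day 10, were taken in their place after the data had been seen. At day 0, over 9 libraries, log2 CPM of the 2 genes correlated with Pearson's r = 0.912 (exact permutation p = 0.00251, adjusted p = 0.0150 over 6 pairs) and Spearman's rho = 0.867 (exact permutation p = 0.00451, adjusted p = 0.0182). The permutations for all correlations, at both days, ignored line and pool, so their p-values include differences between lines and between pools. Without the 2 libraries farthest from the median of Cubn r was 0.971, after subtracting each line's mean 0.959, and within the 6 libraries of the first pool 0.883. No other pair passed by Pearson's r at day 0 with TMM scaling. Lrp2 and Amn had r = -0.720 (exact permutation p = 0.0170, adjusted p = 0.0510) and rho = -0.850 (exact permutation p = 0.00607, adjusted p = 0.0182). Within the first pool, which held Quaking KO and WT, r was -0.56. After subtracting line means it was -0.06. No line was split between pools at day 0, so this subtraction also removes differences between pools. Line and pool cannot be told apart in this relation. With RLE scaling, added after the data had been seen, r was -0.83 (exact permutation, adjusted p = 0.00866), so this pair passed there.

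At day 10 the Quaking KO libraries stood apart, so no correlation of these genes with each other over all 9 libraries, the planned set, is given. Within the 6 Sam68 KO and WT libraries, Lrp2, Cubn and Dab2 varied together, and no relation of Amn with them passed. Pearson's r was 0.956 for Lrp2 and Cubn, 0.938 for Cubn and Dab2 (exact permutation p = 0.00833 and adjusted p = 0.0167 for each) and 0.930 for Lrp2 and Dab2 (exact permutation p = 0.00139, adjusted p = 0.00833). Spearman's rho was 0.771 for the first 2 pairs (exact permutation p = 0.103, adjusted p = 0.206) and 1.0 for Lrp2 and Dab2 (exact permutation p = 0.00278, adjusted p = 0.0167). Without the 2 libraries farthest from the median, r was 0.765, 0.977 and 0.863 in the order of the pairs above. With Amn, r was -0.15 for Lrp2, -0.19 for Cubn and 0.10 for Dab2 (exact permutation p of at least 0.761). The libraries low in the 3 correlated genes were WT replicate 3 and Sam68 KO replicates 2 and 3, which are the 3 dominated libraries. The 6 thus fall 3 and 3 by composition, too few for a value within each, and the part of composition in the relation was not tested.

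**Figure D4:**
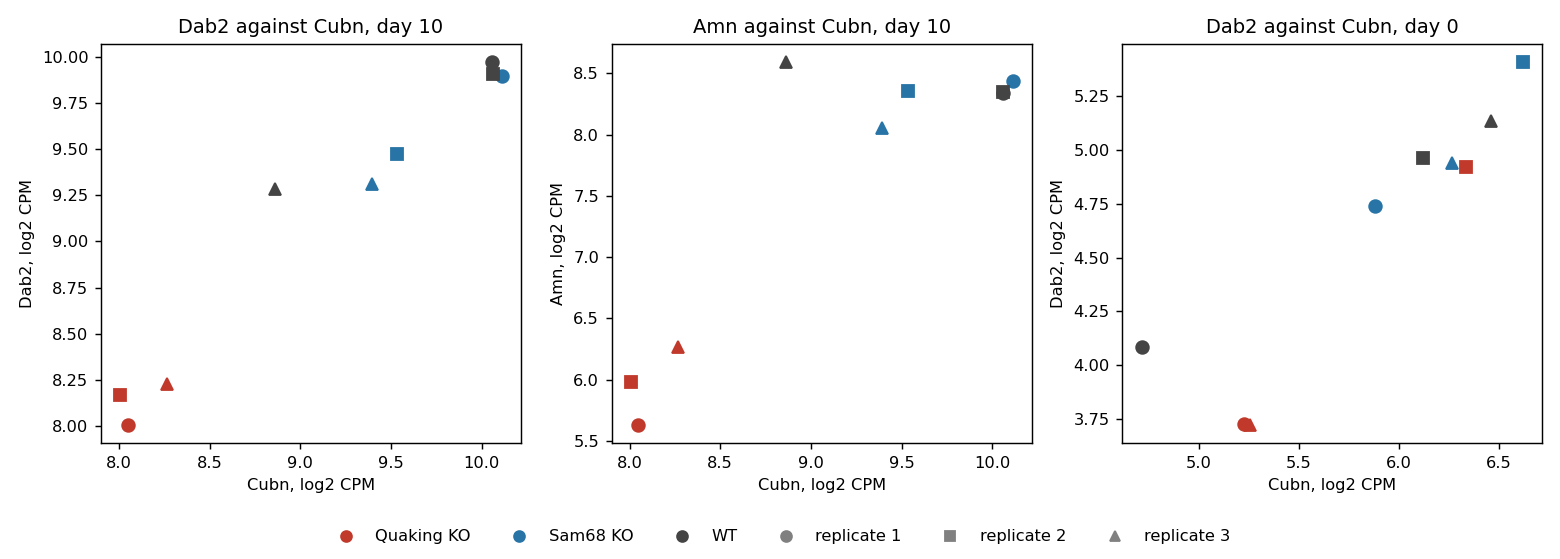
Log2 CPM of Dab2 against Cubn and of Amn against Cubn at day 10, and of Dab2 against Cubn at day 0; each point is a library, coloured by line and marked by replicate. Dab2 is higher where Cubn is higher at day 0 and, at day 10, among Sam68 KO and WT libraries. The day 10 panels also hold the gap between Quaking KO and the other lines, and within Quaking KO the order of Cubn and Dab2 differs. Among Sam68 KO and WT libraries at day 10 Amn stays between 266 and 385 CPM while Cubn runs from 465 to 1107 CPM.

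As a description of likeness across the 9 day 10 libraries, the mean profile of the 4 genes was set against the 9016 genes with a mean of at least 10 CPM. Such an r includes the gap between Quaking KO and the other lines, so it does not show that genes vary together within a line. Leaving out the 4 themselves, the genes most like their mean were ENSMUSG00000000303.12 (r = 0.995) and ENSMUSG00000039385.4 (r = 0.995), for which no names were used here.

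**Figure D5:**
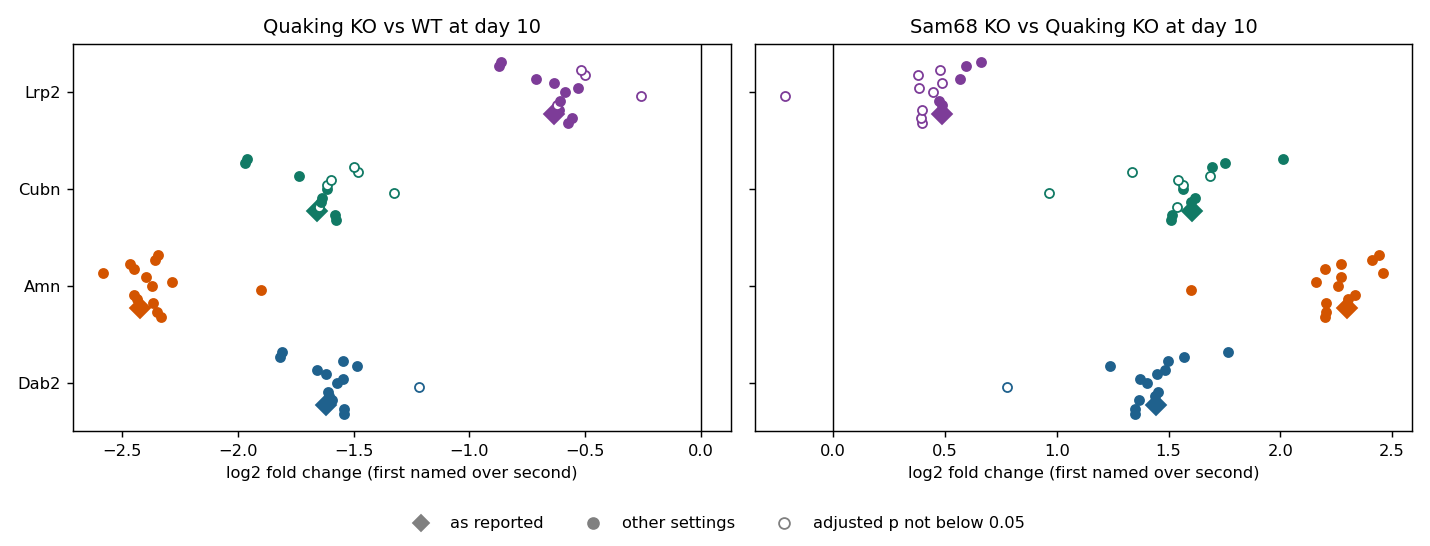
Log2 fold change of each gene under every processing setting other than the pool block, for Quaking KO vs WT and for Sam68 KO vs Quaking KO at day 10; diamonds are the reported values and open circles have an adjusted p of at least 0.05. Amn was called under every setting drawn, Dab2 under every one but total-count scaling, and Lrp2 and Cubn lost their calls under several.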

How the data were processed

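Ribosome-protected fragments of 28 to 32 nt were sequenced, per the labels' protocols, from cells given cycloheximide (100 µg/mL, 15 minutes). The authors deposited raw counts per gene, 1 file per library, for 51826 versioned Ensembl IDs. The submitters' processing notes name STAR 2.5.3a, Bowtie2, bcl2fastq 2.17.1.14 and the builds GRCm38 and mm10; how counting was done, on which annotation and with which strand, is not given in the sources used here.

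All 18 libraries entered 1 edgeR 4.0.16 quasi-likelihood fit (R 4.3.3, robust, TMM scaling, default filter on low counts, a mean per group), which kept 13701 of 33167 detected genes, holding 99.4% or more of the counts in every library. P-values are two-sided and adjusted by Benjamini-Hochberg over all genes tested, with a threshold of 0.05; there were 11 comparisons. CPM are TMM-scaled, and log2 CPM for correlations add a prior count of 2. Count intervals (95%, exact binomial) express counting error alone: without molecular identifiers, reads need not be separate molecules. Every replicate pair differed by more than sampling noise (lowest chi-square 4.82 per degree of freedom). Same-numbered libraries had deviations correlating from -0.183 to 0.442, with all pairs over 0.1 in 0 of 9 comparisons between groups, so numbers were not taken as pairs.

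The 4 genes, the gene lists and the tests were chosen with earlier results of these data known. The genes named are the 4 and the first 2 by likeness to their mean. A fixed rule lists the first 5 for each gene and for the mean, and the others are not given. Gene lists written by symbol could not be used, because 0 of 49997 genes in the reference table carry an Ensembl ID, and levels per coding length were not computed. Alternatives were RLE, upper quartile and total-count scaling, no filter, DESeq2 1.42.0, only the compared groups, a replicate block, a pool block, and leaving out libraries. Promoter sequences are RefSeq's (GRCm38.p6); all 4 symbols matched.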

Additional observations from a re-analysis of the deposited data

Results flagged for a closer look

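The interaction of Quaking loss with day for Amn was taken for a closer look because the Quaking KO vs WT difference itself was tested between the 2 days and differed. Its log2 value was -1.72 (edgeR adjusted p = 0.000887): Quaking KO over WT was -2.42 at day 10 and -0.70 at day 0. Counts of Amn at day 0 were 9, 14 and 21 in Quaking KO, against 39, 74 and 124 in WT. WT was in another pool than Quaking KO at day 10 and in the same pool at day 0, so the interaction and the pools cannot be told apart.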

How the results depend on the processing

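Over all 11 comparisons with 1 library left out, the 4 genes' results kept direction and side of the threshold 283 times. They lost a call 19 times, gained one 3 times and changed sign 7 times. Under the other settings these numbers were, in the same order, 334, 21, 6 and 11. Those settings include the pool block, whose values are fixed by construction. It gave most of the sign changes under the other settings, and some of the lost and gained calls. Leaving out 1 library gave, for Quaking KO vs WT at day 10, log2 fold changes of -0.87 to -0.50 for Lrp2 and -1.97 to -1.48 for Cubn, with 2 to 4 of the genes called. For Sam68 KO vs Quaking KO at day 10 it gave 0.38 to 0.59 for Lrp2 and 1.34 to 1.75 for Cubn, with 2 to 4 called, and at day 0 0.67 to 1.37 for Dab2, with 1 to 2 called. For Sam68 KO vs WT it gave -0.36 to 0.13 for Cubn at day 10, and -0.0152 to 0.71 for Cubn and 0.49 to 0.83 for Amn at day 0, with 0 to 1 called. It gave -0.72 to 0.0843 for Cubn in Quaking KO vs WT at day 0, 0.33 to 0.51 for Lrp2 between days in Quaking KO, -0.92 to -0.55 for the Lrp2 Quaking interaction, with 1 to 2 called, and -0.12 to 0.25 for its Sam68 interaction.

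Pool as a block needs additive terms here, which by construction replace Quaking KO vs WT at day 10 with the day 0 value (Lrp2 0.0644, Cubn -0.26, Amn -0.70, Dab2 -0.63, 0 called) and the day 0 value of Sam68 KO over Quaking KO with its day 10 value (Lrp2 0.49, Cubn 1.61, Amn 2.30, Dab2 1.44, 4 called). Sam68 KO vs WT then became 0.55 for Lrp2, 1.34 for Cubn, 1.599 for Amn (the 1 called) and 0.81 for Dab2 at both days, and the interactions could not be fitted. Day 10 over day 0 took 1 value for all lines (Lrp2 1.97, Cubn 4.83, Amn 6.21, Dab2 5.52), all called, against 0.45, 2.44, 3.59 and 3.99 in Quaking KO without the block. With no filter on low counts, values were -1.65 (Cubn, Quaking KO vs WT at day 10), 0.40 and 1.54 (Lrp2 and Cubn, Sam68 KO vs Quaking KO at day 10, 2 called) and 0.20 (Lrp2 between days in Quaking KO). For Lrp2 in Sam68 KO vs Quaking KO at day 10 RLE gave 0.40, upper quartile scaling 0.45 and DESeq2 0.40. With only the compared groups Lrp2 was -0.62 in Quaking KO vs WT at day 10 and -0.42 in Sam68 KO vs Quaking KO at day 0 (2 called). The Lrp2 Quaking interaction passed with DESeq2 (-0.73) and without the 3 dominated libraries (-0.88), with 2 called in each. Without those 3 libraries Sam68 KO vs WT at day 10 was 0.0538 for Cubn and 0.10 for Amn.

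Total-count scaling, added after the data had been seen, gave for Quaking KO vs WT at day 10 -0.26 (Lrp2), -1.33 (Cubn) and -1.22 (Dab2), with 1 called. It gave for Sam68 KO vs Quaking KO -0.22 (Lrp2), 0.97 (Cubn) and 0.78 (Dab2) at day 10, with 1 called, and 1.46 (Amn) at day 0, with 0 called. Lrp2 between days became 0.66 in WT, 0.36 in Quaking KO and 0.43 in Sam68 KO, the Amn Quaking interaction -1.17 (0 called) and the Lrp2 Sam68 interaction -0.23. Relative to the median of all genes, the 4 scalings gave -0.66 to -0.60 for Lrp2, -1.73 to -1.62 for Cubn, -2.39 to -2.30 for Amn and -1.62 to -1.58 for Dab2 in Quaking KO vs WT at day 10. The cause of the other changes was not tested. The numbers of genes called among all tested also moved: only the compared groups gave 1887 in place of 3279 for Quaking KO vs WT at day 10, and DESeq2 78, no filter 95 and only the compared groups 11 in place of 24 for Sam68 KO vs WT at day 10. With 1 library left out these were 10 (without Sam68 KO replicate 2) to 53 (without WT replicate 3) in place of 24, 16 to 96 in place of 59 for the Sam68 interaction (the same 2 libraries), 21 (without Quaking KO replicate 3) to 48 in place of 50 for Quaking KO vs WT at day 0, 81 (without WT replicate 2) to 217 in place of 173 for Sam68 KO over WT in stem cells, and 239 (without Quaking KO replicate 3) to 415 in place of 454 for Sam68 KO vs Quaking KO at day 0. Of the genes called for Sam68 KO vs Quaking KO at day 10, 55.1% were higher, against 44.5% with RLE and 11.4% with total-count scaling. Of those called for Quaking KO vs WT at day 10, 46.4% were higher, against 54.6% with RLE and 74.8% with total-count scaling. The replicate block changed no call of the 4 genes (-2.45 for Amn in Quaking KO vs WT at day 10), and 9 of 27 compared libraries correlated best with their own number. Correlations at day 10 within the third pool or without the 3 dominated libraries were not run, because the lines form clusters there or 3 libraries remain. Small differences are limited by 3 libraries a group and, for Amn at day 0, by counts.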
